A study of Mus musculus with 6 samples.

Results

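The 9 genes described here are the CCN family genes *Cyr61*, *Ctgf*, *Nov*, *Wisp1* and *Wisp2* (now *Ccn1* to *Ccn5*), the YAP target genes *Ankrd1* and *Amotl2*, and *Yap1* and *Wwtr1*, which encode YAP and TAZ. They were chosen by name, with earlier results of these data known, and all 9 were found among the 23284 genes listed in each sample. The samples were ECFP+ osteoblasts (OBs) sorted from ectopic bone on day 10 (n = 3) and day 14 (n = 3) after a collagen sponge with 2.5 μg of BMP-2 was placed under the skin of male *Col2.3*-ECFP mice of 12 to 16 weeks. In these mice a fragment of the type I collagen promoter drives a cyan fluorescent protein, so the sort followed promoter activity, and CD45+ and dead cells were gated out. Every group received BMP-2, so no sample shows these genes without it. Bone was treated with collagenase 1 time before the day 10 sorts but 2 times before the day 14 sorts, so the time point and the number of digestions cannot be told apart. The titles place all 3 later samples on day 14, which was used here, while free-text descriptions give day 14, 15 and 16 for replicates 1, 2 and 3. The labels call the replicates biological but do not say whether a sample came from 1 mouse or several.

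CCN proteins are secreted into the matrix, where they bind integrins and growth factors. *Cyr61* and *Ctgf* are the best-known genes switched on when YAP and TAZ, a pair of transcriptional cofactors, enter the nucleus and join the DNA-binding TEAD factors. The Hippo kinases LATS1 and LATS2 hold YAP and TAZ in the cytoplasm, whereas cell spreading and a stiff matrix favour their entry into the nucleus. That entry is controlled at the protein level, so mRNA levels of *Yap1* and *Wwtr1* do not measure it.

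The TEAD factors bind the core sequence GGAATG, read on either strand, and the stretch upstream of each gene was searched for it because YAP and TAZ reach DNA through these factors. RefSeq promoter windows (250 bases before to 50 bases after the annotated start, build GRCm38.p6, the build of mm10) were found for 5 of the 9 genes, namely *Cyr61*, *Ankrd1*, *Amotl2*, *Yap1* and *Wwtr1*, and not for *Ctgf*, *Nov*, *Wisp1* or *Wisp2*. All 5 held the core at least 1 time, as did 4481 of the 27025 genes with a window (16.6%). Among all 32851 windows, 14.7% held it, and 12.6% held it in the 250 bases before the start. The 250 bases upstream of *Cyr61* (chr3:145649986-145650235, minus strand), *Yap1* (chr9:8004597-8004846, minus strand) and of the outer start of *Wwtr1* (chr3:57575911-57576160, minus strand) are shown 5′ to 3′ in the direction of the gene, with the core or its complement in capitals.
*Cyr61*: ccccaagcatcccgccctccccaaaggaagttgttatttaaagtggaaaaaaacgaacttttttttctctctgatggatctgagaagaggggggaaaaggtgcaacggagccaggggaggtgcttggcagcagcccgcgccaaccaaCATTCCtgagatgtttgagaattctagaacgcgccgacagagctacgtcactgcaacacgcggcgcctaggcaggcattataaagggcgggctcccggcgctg
*Yap1*: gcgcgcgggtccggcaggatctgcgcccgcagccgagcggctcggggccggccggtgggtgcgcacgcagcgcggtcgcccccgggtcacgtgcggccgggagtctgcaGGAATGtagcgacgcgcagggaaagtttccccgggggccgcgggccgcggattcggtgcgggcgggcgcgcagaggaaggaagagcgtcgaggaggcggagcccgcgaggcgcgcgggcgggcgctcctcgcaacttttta
*Wwtr1*: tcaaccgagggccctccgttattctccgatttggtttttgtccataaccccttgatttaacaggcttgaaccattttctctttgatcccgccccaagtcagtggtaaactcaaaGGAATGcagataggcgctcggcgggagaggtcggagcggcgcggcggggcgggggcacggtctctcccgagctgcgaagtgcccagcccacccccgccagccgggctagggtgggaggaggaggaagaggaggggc

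The core began 103 bases before the start of *Cyr61*, where it lay on the other strand, 141 bases before that of *Yap1* and 136 bases before the outer start of *Wwtr1*. For *Ankrd1* and *Amotl2*, whose windows overlap annotated exons of other transcripts of the same gene, only the 30 bases around each core are shown. *Ankrd1* held the core at 2 places, 210 and 123 bases before its start (chr19:36120037-36120066 and chr19:36119950-36119979, minus strand), and *Amotl2* held it 65 bases before its start, on the other strand (chr9:102717727-102717756, plus strand).
*Ankrd1*, outer: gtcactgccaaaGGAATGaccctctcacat
*Ankrd1*, inner: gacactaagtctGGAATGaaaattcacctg
*Amotl2*: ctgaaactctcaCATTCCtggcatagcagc
Of the other pathway genes described below, 5 of 16 Hippo genes with a window and 4 of 12 other target genes with a window held the core. A match describes the letters only, and binding was not measured in these samples.

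FPKM, the read count of a gene scaled to its transcript length and to the depth of the library, is a level per length, so the genes can be ordered within a sample. *Cyr61* and *Ctgf* were the most abundant of the 9 genes by mean FPKM on both days, and *Ankrd1* was the least abundant in all 6 samples. *Cyr61* ranked between 51 and 107 among all genes listed in a sample, and *Ctgf* between 63 and 215. On day 10 the order of the mean FPKM was *Cyr61*, *Ctgf*, *Nov*, *Wisp1*, *Wisp2*, *Wwtr1*, *Amotl2*, *Yap1* and *Ankrd1*. The samples of *Nov* and *Wisp1* overlapped on day 10, as did those of *Wisp1* and *Wisp2*, and the other neighbours in that order did not overlap. On day 14 *Wisp2* stood above *Wisp1* with no overlap, while *Ctgf* and *Cyr61* overlapped, as did *Nov* and *Wisp2*. From *Wwtr1* down to *Ankrd1* the order was the same in all 6 samples.

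**Figure D1:**
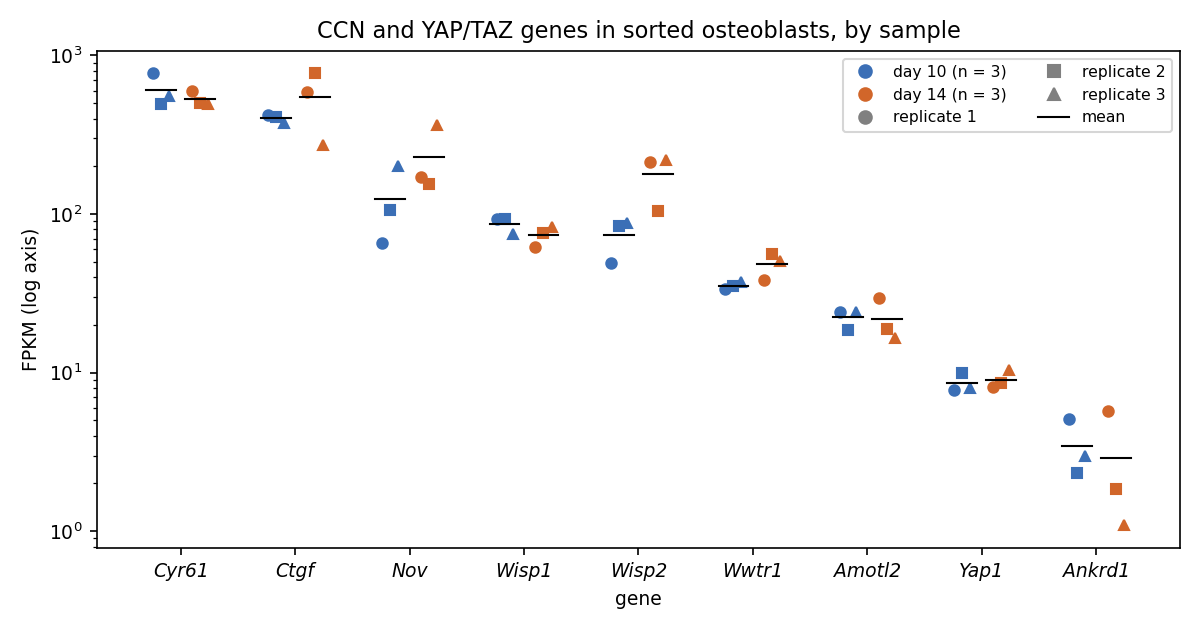
FPKM (log axis) of the 9 genes in each of 3 day 10 and 3 day 14 samples, with symbols for the replicate number and lines for the day means. The symbols of the days are separate for *Wisp2* and *Wwtr1* and overlap for the other 7 genes.

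The comparison of the days asked whether these genes changed while OBs went from a spindle to a cuboid shape. Of the 9 genes, *Wisp2* and *Wwtr1* had every day 14 sample above every day 10 sample, and the other 7 overlapped. No gene of the 9 had a p under 0.05 from limma after adjustment over the 19526 genes tested, where 0.0154% of all genes had one. Before adjustment, 2 of the 9 had a p under 0.05 and were higher on day 14, against 5.60% of all genes, and 0 were lower, against 4.40% of all genes. Days that did not overlap, with day 14 higher, were found in 2 of the 9 genes and in 7.59% of all genes, and the opposite in 0 of the 9 and in 6.67% of all genes. The median log2 fold change was 0.07 over the 9 genes and −0.04 over all genes tested. All fold changes are those of FPKM + 0.1.

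**Figure D2:**
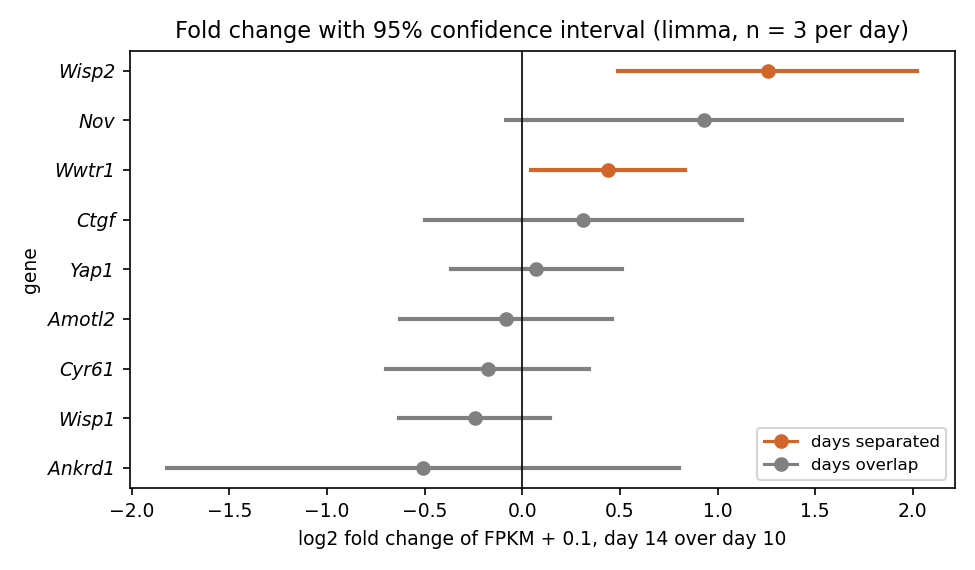
Log2 fold change of FPKM + 0.1 (day 14 over day 10) of the 9 genes with 95% confidence intervals from limma (n = 3 per day). The intervals of *Wisp2* (0.49 to 2.02) and *Wwtr1* (0.05 to 0.83) lie above 0, and the other 7 include 0.

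*Wisp2* (chr2:163820861-163833146, plus strand) encodes CCN5, the only CCN protein of these 5 that lacks the C-terminal cystine knot domain. Its FPKM was 48.8, 84.6 and 87.6 in day 10 replicates 1, 2 and 3, and 214, 105 and 221 in day 14 replicates 1, 2 and 3. Replicates 1 and 3 of day 14 stood far above the rest, while replicate 2 was close to the highest day 10 sample. The day 10 mean was 73.7 ± 21.6 FPKM (SD, n = 3) and that of day 14 was 180 ± 65.2 FPKM (SD, n = 3). The difference was 2.39-fold, with a 95% confidence interval of 1.40 to 4.06 (log2 fold change 1.26, standard error 0.33). Its p from limma was 0.00516 before and 0.319 after adjustment over all genes, so it did not pass over the whole table, and the two-sided exact permutation test gave 0.1, below which a test of 3 against 3 samples cannot go. The unadjusted p stayed under 0.05 in each of the 14 other settings, while the adjusted p ranged from 0.0609 to 0.968. Leaving out single samples gave folds between 1.98 and 3.05, the highest of them without day 14 replicate 2. *Wisp2* was chosen with earlier results of these same samples known, so the difference is no independent evidence of its direction.

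The samples highest in *Wisp2* were also highest in summed fibroblast markers. The summed FPKM of 8 such markers was 584, 672 and 1147 on day 10 and 1896, 952 and 2504 on day 14, with replicates 1 and 3 of day 14 at the top, as for *Wisp2*. All 8 were above 0 in every sample, 7 of 8 had a higher mean log2 value on day 14, and 3 of 8 had an unadjusted p under 0.05 in that direction from limma (5.60% of all genes). None of the 8 passed after adjustment, and the days overlapped for all 8. The count of 3 was 1 without day 10 replicate 1, day 10 replicate 2 or day 14 replicate 3, 2 without day 14 replicate 1, and 6 without day 10 replicate 3 or day 14 replicate 2. *Mfap5*, a microfibril gene and the most abundant of the 8, had 238, 280 and 497 FPKM on day 10 and 977, 476 and 1208 FPKM on day 14. *Mfap5* and *Ly6a* together made up most of each sum. *Ly6a*, *Pi16*, *Cd34* and *Cd248* also had replicates 1 and 3 of day 14 at the top. *Pdgfra*, *Dpt* and *Clec3b* did not. *Pdgfra*, a receptor of many mesenchymal cells, had 35.1, 33.8 and 30.2 FPKM on day 10 and 33.3, 20.4 and 51.0 FPKM on day 14. Day 14 replicate 1 lay below day 10 replicate 3 in *Dpt* (38.1 against 48.9 FPKM) and *Clec3b* (7.25 against 12.8 FPKM). The same samples, replicates 1 and 3 of day 14, were highest in the sums of 2 further lists. The 10 endothelial markers summed to 2.51, 4.31 and 4.56 FPKM on day 10 and to 11.0, 5.70 and 7.37 FPKM on day 14, so the sums were low but separate between the days. All 10 had a positive log2 fold change, 2 had an unadjusted p under 0.05 from limma and were higher on day 14 (5.60% of all genes), none passed after adjustment, and *Emcn* and *Cldn5* were at 0 in at least 1 sample. The 10 myeloid markers summed to 41.5, 154 and 123 FPKM on day 10 and to 256, 21.7 and 618 FPKM on day 14, with overlapping days. None of these 10 had an unadjusted p under 0.05 from limma, and *Emr1* was at 0 in at least 1 sample. The part of fibroblasts, endothelial cells or myeloid cells in the *Wisp2* values was not tested, and in sorted bulk samples more cells of a type and more RNA per cell cannot be told apart. The 7 OB markers were above 0 in every sample, and all 7 had a negative log2 fold change (median −1.69). Of these, 2 had an unadjusted p under 0.05 from limma and were lower on day 14 (4.40% of all genes), and none passed after adjustment. Their summed FPKM was 54192, 52070 and 28368 on day 10 and 19619, 38269 and 15669 on day 14, lowest in the 2 samples highest in *Wisp2*.

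**Figure D3:**
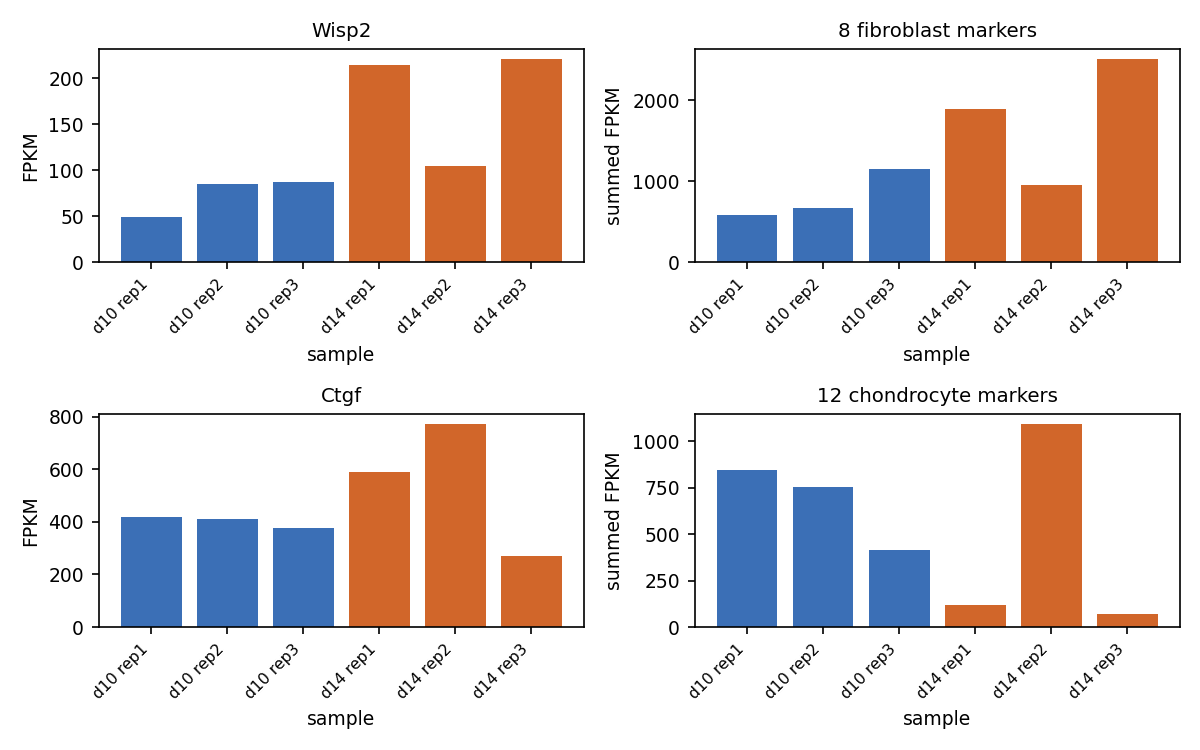
FPKM of *Wisp2* and *Ctgf* beside the summed FPKM of 8 fibroblast and 12 chondrocyte markers in the 3 day 10 samples (blue) and 3 day 14 samples (orange), 1 bar per sample. Day 14 replicates 1 and 3 are highest for both *Wisp2* and the fibroblast sum, and day 14 replicate 2 is highest for both *Ctgf* and the chondrocyte sum. Day 14 replicate 1 is second highest for *Ctgf* but below all day 10 samples for the chondrocyte sum.

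*Wwtr1* (chr3:57455649-57575910, minus strand) encodes TAZ, and *Yap1* (chr9:7931999-8004596, minus strand) encodes its partner YAP. The FPKM of *Wwtr1* was 33.5, 34.9 and 37.3 on day 10 and 38.5, 56.1 and 50.5 on day 14. The day 10 values lay close together, and replicate 1 of day 14 was just above them. The difference was 1.36-fold with a 95% confidence interval of 1.03 to 1.78 (log2 fold change 0.44, standard error 0.17). The p from limma was 0.0325 before and 0.449 after adjustment over all genes, and the two-sided exact permutation test gave 0.1. The direction held in all 14 other settings, with an adjusted p between 0.278 and 0.997. The unadjusted p was under 0.05 in 9 of them, and it was not without day 10 replicate 1, day 10 replicate 2, day 14 replicate 2 or day 14 replicate 3, or without the mean-variance trend.

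*Yap1* had 7.78, 9.95 and 8.05 FPKM on day 10 and 8.12, 8.55 and 10.4 FPKM on day 14. The days overlapped, and the highest and the lowest value came from different days. The fold was 1.05 with a 95% confidence interval of 0.776 to 1.42 (adjusted p = 0.950 from limma), an interval that includes the 1.36-fold difference of *Wwtr1*. Within each sample *Wwtr1* was above *Yap1*, with a ratio of FPKM of 4.30, 3.51 and 4.63 on day 10 and 4.74, 6.56 and 4.85 on day 14. All 3 ratios of day 14 were above those of day 10, and the widest ratio was that of day 14 replicate 2. The difference between the changes of both genes was not tested further. Exons of *Yap1* overlap an antisense transcript, *Gm20416*, and without stated strand information reads of both cannot be told apart.

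*Cyr61* (chr3:145646976-145649981, minus strand) encodes CCN1, a matrix protein made rapidly after mechanical or growth factor stimulation. It had 771, 496 and 554 FPKM on day 10 and 593, 498 and 496 FPKM on day 14. Replicate 1 of day 10 was the highest and the other 5 samples lay between 496 and 593 FPKM. The fold was 0.885 with a 95% confidence interval of 0.618 to 1.27 (adjusted p = 0.862 from limma, two-sided exact permutation p = 0.7). Without day 10 replicate 1 the log2 fold change was 0.0087 instead of −0.18. These values rested on between 4869 and 7769 estimated reads per sample.

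*Ctgf* (chr10:24595442-24598683, plus strand) encodes CCN2, a partner of TGF-beta signalling that is abundant in growth plate cartilage. It had 419, 410 and 377 FPKM on day 10 and 590, 772 and 272 FPKM on day 14. The day 10 samples lay close together, whereas the day 14 samples held both the highest value, in replicate 2, and the lowest, in replicate 3. The fold was 1.24 with a 95% confidence interval of 0.707 to 2.18 (adjusted p = 0.836 from limma, two-sided exact permutation p = 0.5). The log2 fold change of 0.31 rested on single day 14 samples, being −0.0032 without replicate 2 and 0.75 without replicate 3, where the unadjusted p from limma was 0.0137 and the adjusted p 0.642. Within a sample the ratio of *Ctgf* to *Cyr61* in FPKM was 0.544, 0.826 and 0.681 on day 10 and 0.995, 1.55 and 0.548 on day 14, so *Ctgf* exceeded *Cyr61* in day 14 replicate 2 alone. That sample also had the highest summed FPKM of 12 chondrocyte markers (1093), against 118 and 72.8 in replicates 1 and 3 of day 14 and 847, 754 and 418 on day 10. The match did not extend to day 14 replicate 1, which was second highest in *Ctgf* but below all day 10 samples in this sum. Of the 12 markers, 4 had an unadjusted p under 0.05 from limma and were lower on day 14 (4.40% of all genes). None passed after adjustment, and the days overlapped for all 12. *Matn1* and *Lect1* were at 0 in at least 1 sample, and *Col2a1* alone reached 688 FPKM in day 14 replicate 2 against 12.1 and 8.75 FPKM in replicates 1 and 3. *Col2a1*, *Acan*, *Sox9*, *Matn3*, *Hapln1* and *Col10a1* were highest in day 14 replicate 2. *Col11a2*, *Col9a1*, *Col9a2*, *Lect1*, *Ihh* and *Matn1* were instead highest in day 10 replicate 1. *Col11a2* had 294 FPKM there against 136 FPKM in day 14 replicate 2. The part of cartilage cells in the *Ctgf* values was not tested. Exons of *Ctgf* overlap an antisense transcript, *Gm15270*, with the same limit on strand as for *Yap1*.

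*Nov* (chr15:54745702-54754039, plus strand) encodes CCN3, which is often found to oppose CCN2. It had 65.3, 106 and 201 FPKM on day 10 and 172, 155 and 364 FPKM on day 14. Day 10 replicate 3 lay above replicates 1 and 2 of day 14, so the days overlapped, and day 14 replicate 3 was the highest. The fold was 1.91 with a 95% confidence interval of 0.945 to 3.85 (log2 fold change 0.93, standard error 0.44). The p from limma was 0.0669 before and 0.536 after adjustment over all genes, and the two-sided exact permutation test gave 0.3. When single samples were omitted the log2 fold change lay between 0.55 and 1.35, and the unadjusted p from limma was 0.0108 without day 10 replicate 3 and 0.0422 without day 14 replicate 2. On each day *Nov* was highest in replicate 3, the sample that also had the most fibroblast and the most mural marker FPKM of its day. The 10 mural and smooth muscle markers summed to 366, 361 and 794 FPKM on day 10 and to 521, 577 and 676 FPKM on day 14. Of these 10, 6 had a positive and 4 a negative log2 fold change. Only 1 was higher with an unadjusted p under 0.05 from limma (5.60% of all genes), and none passed after adjustment. Most of each mural sum came from *Acta2*, with 243, 236 and 594 FPKM on day 10 and 356, 380 and 465 FPKM on day 14. *Acta2*, *Tagln* and *Abcc9* were highest in replicate 3 on each day, and the other mural markers were not. *Cspg4* was lowest there on both days (13.7 and 6.75 FPKM), as were *Rgs5* and *Notch3* on day 14. Whether fibroblasts or mural cells contributed to *Nov* was not tested.

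*Wisp1* (chr15:66891320-66923201, plus strand) encodes CCN4, a Wnt-induced protein of bone-forming cells. It had 93.1, 93.1 and 74.6 FPKM on day 10 and 62.2, 75.7 and 82.6 FPKM on day 14. All samples lay within this narrow range, from 62.2 to 93.1 FPKM, and the days overlapped. The fold was 0.845 with a 95% confidence interval of 0.645 to 1.11 (adjusted p = 0.703 from limma, two-sided exact permutation p = 0.3). The sixth family gene, *Wisp3* (now *Ccn6*), had listed values of 0, 0.600 and 0.318 FPKM on day 10 and of 1.08, 0.139 and 0 FPKM on day 14, from between 0 and 5.93 estimated reads. These values are too low to compare the days, since 3 reads on this gene are worth between 0.321 and 0.548 FPKM.

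The make-up of the CCN transcripts followed from these levels. The 5 genes summed to 1397, 1190 and 1294 FPKM on day 10 and to 1632, 1605 and 1436 FPKM on day 14. *Cyr61* and *Ctgf* together made up 85.2%, 76.1% and 72.0% of the sum on day 10 and 72.5%, 79.1% and 53.5% on day 14. The share of *Cyr61* was between 41.7% and 55.2% on day 10 and between 31.0% and 36.4% on day 14, so it was lower in all 3 later samples although its own level overlapped. The share of *Wisp2* was 3.49%, 7.11% and 6.77% on day 10 and 13.1%, 6.52% and 15.4% on day 14, with replicate 2 of day 14 inside the range of day 10. Day 14 replicate 3 stood apart, with *Nov* at 25.4% and above *Ctgf* at 18.9%.

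**Figure D4:**
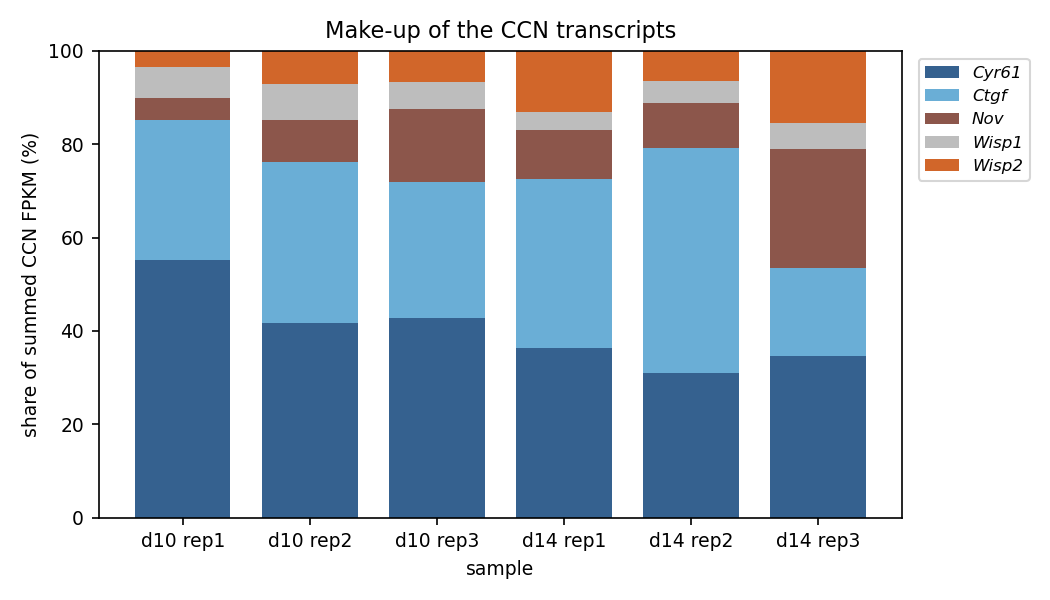
Share of each CCN gene (%) in the summed FPKM of *Cyr61*, *Ctgf*, *Nov*, *Wisp1* and *Wisp2*, 1 stacked bar for each of the 6 samples. The *Cyr61* share is between 31.0% and 36.4% in the day 14 bars and at least 41.7% in the day 10 bars, and *Nov* and *Wisp2* take the most in day 14 replicate 3.

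The target genes *Ankrd1* and *Amotl2* differed in level but had the same sample at the top and at the bottom. *Ankrd1* (chr19:36111961-36120099, minus strand) encodes an ankyrin repeat protein of muscle that YAP also induces in other cells. It had 5.11, 2.33 and 2.97 FPKM on day 10 and 5.76, 1.84 and 1.09 FPKM on day 14. The day 14 samples held the highest and the 2 lowest values. The fold was 0.703 with a 95% confidence interval of 0.284 to 1.74 (adjusted p = 0.836 from limma, two-sided exact permutation p = 0.5). The log2 fold change moved from −0.51 to −1.16 without day 14 replicate 1 (unadjusted p = 0.0323 and adjusted p = 0.333 from limma) and to −0.0074 without day 14 replicate 3. The values rested on between 12.5 and 42.6 estimated reads, against at least 358 in any sample for *Cyr61*, *Ctgf*, *Nov*, *Wisp2* and *Wwtr1*. The 10 skeletal muscle markers summed to at most 18.3 FPKM on day 10 and at most 16.0 FPKM on day 14. Of these, 8 were at 0 in at least 1 sample, and *Ckm* was at 0 in 5 of the 6 samples and never above 0.169 FPKM. *Des* was present throughout, with 8.20, 10.0 and 16.2 FPKM on day 10 and 12.7, 6.34 and 11.9 FPKM on day 14. *Acta1* had 8.33 FPKM in day 10 replicate 1 and at most 0.577 FPKM in any other sample. The part of muscle cells in the *Ankrd1* values was not tested.

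*Amotl2* (chr9:102716672-102733418, plus strand) encodes an angiomotin, a scaffold that binds YAP and restrains it, and is itself a target of YAP. It had 24.1, 18.7 and 24.2 FPKM on day 10 and 29.6, 18.8 and 16.5 FPKM on day 14. Replicate 1 of day 14 was the highest and replicate 3 the lowest, with day 10 between them. The fold was 0.945 with a 95% confidence interval of 0.649 to 1.38 (adjusted p = 0.954 from limma, two-sided exact permutation p = 0.9). Its direction turned without day 14 replicate 3, to a log2 fold change of 0.09.

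The 9 genes differed in how far replicates of a day lay apart. The within-day SD of log2(FPKM + 0.1), pooled over both days, was 0.92 for *Ankrd1*, 0.75 for *Nov*, 0.56 for *Ctgf* and 0.55 for *Wisp2*. It was 0.35 for *Amotl2*, 0.26 for *Cyr61*, 0.21 for *Wwtr1*, 0.20 for *Wisp1* and 0.19 for *Yap1*, against a median of 0.30 over the 11162 genes tested with a mean of at least 1 FPKM. *Ankrd1* thus varied more than 92.7% of these genes and *Yap1* more than 21.9%.

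Profiles over the 6 samples were compared by the root mean square difference of log2(FPKM + 0.1) after centring each gene on its mean, for the 4 genes with an SD of at least 0.5 over the samples. The closest to *Wisp2* was *Ctsc* (0.11), against a median of 0.82 over all 11161 other genes with a mean of at least 1 FPKM. *Ctsc*, which encodes cathepsin C, had between 29.4 and 45.4 FPKM on day 10 and between 56.5 and 106 FPKM on day 14. The closest to *Nov* were *F2r* (0.15), the thrombin receptor, and *2310028H24Rik* (0.17). Those closest to *Ctgf* were *1200009I06Rik* (0.08) and *Nudt14* (0.10), and those closest to *Ankrd1* were *Ikzf2* (0.19) and *Dfna5* (0.23). With 6 samples and this many genes close profiles are common, and they are given as a description. Among the 9 genes themselves, *Wisp1* and *Yap1* (0.21) and *Cyr61* and *Amotl2* (0.23) were the closest pairs, and *Nov* and *Ankrd1* (1.41) the farthest apart. No least SD was set for these pairs. The SD over the 6 samples was 0.22 for *Wisp1*, 0.17 for *Yap1*, 0.25 for *Cyr61* and 0.31 for *Amotl2*. Genes that vary this little lie close together whatever their order of samples.

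Other genes of the pathway were taken from lists drawn up by name, with earlier results of these data known. Of 18 further YAP/TAZ target genes, 5 had an unadjusted p under 0.05 from limma and were higher on day 14 (5.60% of all genes), and 0 were lower (4.40% of all genes). None passed after adjustment over all genes. A positive log2 fold change was found in 15 of the 18, with a median of 0.54 against −0.04 over all genes tested. *Gadd45a*, a stress-induced regulator of growth arrest, had 12.05, 14.6 and 14.05 FPKM on day 10 and 21.0, 38.4 and 23.6 FPKM on day 14 (log2 fold change 0.98, adjusted p = 0.305 from limma). *Nuak2*, a kinase of the AMPK family, had 0.703, 1.00 and 0.752 FPKM on day 10 and 1.73, 2.15 and 2.10 FPKM on day 14 (log2 fold change 1.20, adjusted p = 0.340 from limma). Both had every day 14 sample above every day 10 sample.

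*Ccdc80*, which encodes a matrix protein, had 197, 274 and 246 FPKM on day 10 and 315, 407 and 364 FPKM on day 14, also with separate days (log2 fold change 0.60, limma adjusted p = 0.374). *Axl*, a receptor tyrosine kinase, had 26.1, 26.7 and 42.3 FPKM on day 10 and 76.7, 38.9 and 102 FPKM on day 14 (log2 fold change 1.12, adjusted p = 0.361 from limma). *Axl* overlapped between the days, with replicates 1 and 3 of day 14 far above replicate 2, as for *Wisp2* and the summed fibroblast markers. The fifth gene, *Rbms3* (log2 fold change 0.57, adjusted p = 0.486 from limma), lay outside the rule for named genes and was named after its values were seen. The 3 genes of the list with a negative log2 fold change were *Nt5e* (−0.79), *Ptpn14* (−0.18) and *Arhgef17* (−0.13), all with overlapping days. The count of 5 was between 3 and 8 over the fits with 1 sample omitted, being 3 without day 10 replicate 1 and 8 without day 10 replicate 3. The count of lower genes in these fits stayed at 0, except for 1 without day 14 replicate 2.

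**Figure D5:**
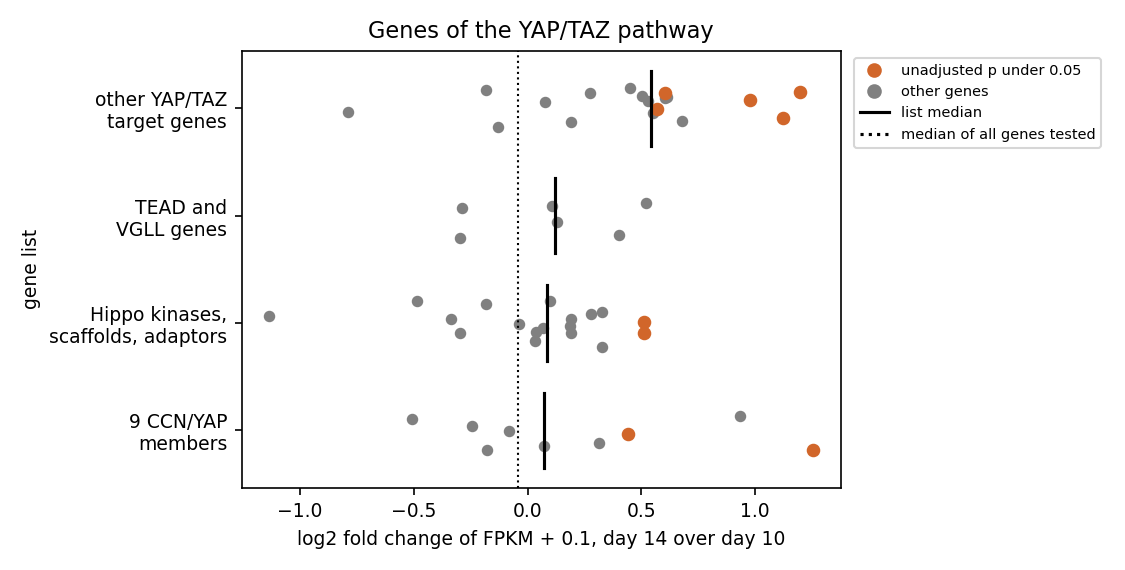
Log2 fold change of FPKM + 0.1 (day 14 over day 10) of each gene tested in the 9 CCN and YAP genes and 3 pathway lists, with orange points for an unadjusted p under 0.05 from limma, solid lines for list medians and a dotted line for the median of all genes tested (−0.04). The median of the other target genes (0.54) lies to the right of the others (0.07 to 0.12).

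Of 18 Hippo kinases, scaffolds and adaptors, 2 had an unadjusted p under 0.05 from limma and were higher on day 14 (5.60% of all genes), 0 were lower (4.40%), and none passed after adjustment. The median log2 fold change was 0.08. *Frmd6*, a membrane scaffold upstream of the kinases, had 42.7, 56.1 and 53.3 FPKM on day 10 and 64.3, 82.4 and 69.6 FPKM on day 14 with separate days (log2 fold change 0.51, limma adjusted p = 0.379). *Sav1*, the scaffold of the upstream kinases, had 6.79, 9.18 and 7.37 FPKM on day 10 and 9.16, 11.9 and 12.4 FPKM on day 14 with overlapping days (log2 fold change 0.51, limma adjusted p = 0.455). *Mob1a*, the LATS activator, had a log2 fold change of 0.33 with separate days, and *Wwc2* one of 0.28 with overlapping days. On the lower side were *Taok2* (−0.48, days separate), *Nf2* (−0.30), *Ptpn14* (−0.18, on both lists) and *Amotl1* (−0.04). Without day 10 replicate 1, without day 14 replicate 2 or without the mean-variance trend no gene of this list was higher with an unadjusted p under 0.05. Without day 14 replicate 1, without day 14 replicate 2 or with the FPKM scaled by the 75th percentile, 1 gene was lower with such a p. *Lats2*, which is also on both lists, had 15.2, 15.7 and 15.9 FPKM on day 10 and 21.0, 17.9 and 14.9 FPKM on day 14.

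The 4 TEAD genes had low levels, in the same order in all 6 samples, with *Tead2* highest, then *Tead3*, *Tead1* and *Tead4*. *Tead2* had 6.31, 5.24 and 5.18 FPKM on day 10 and 4.59, 6.36 and 3.12 FPKM on day 14 with overlapping days (log2 fold change −0.30, limma adjusted p = 0.798). *Tead1* had 0.779, 1.16 and 1.12 FPKM on day 10 and 1.44, 1.42 and 1.60 FPKM on day 14, with separate days (log2 fold change 0.52, limma adjusted p = 0.695). *Tead3* was between 1.00 and 2.92 FPKM, with a log2 fold change of 0.11. *Tead4* was below 0.4 FPKM in all samples, and its log2 fold change of 0.13 has a 95% confidence interval from −1.52 to 1.78. None of the 6 TEAD and VGLL genes tested had an unadjusted p under 0.05 from limma, and *Vgll1* and *Vgll2* were too low to be tested. Without day 10 replicate 3, 1 gene of this list was higher on day 14 with such a p, and without day 14 replicate 2, 1 was lower. Of the cofactors tested, *Vgll4*, which competes with YAP for TEAD, was the most abundant, with 46.2, 41.9 and 41.6 FPKM on day 10 and 30.9, 44.6 and 31.9 FPKM on day 14.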

How the data were processed

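Total RNA of 6 sorted OB samples was amplified with a low-input cDNA kit and sequenced as 75-base single-end reads. The authors aligned these using TopHat 2.0.13 (Bowtie2 2.2.3, SAMtools 0.1.19) on mm10 and deposited FPKM per gene from Cufflinks 2.2.1, 1 file per sample. The gene annotation is not given in the sources used here. In 1 file, 25 symbols turned into dates were restored by position.

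From these values, log2(FPKM + 0.1) was compared between the days with limma 3.58.1 in R 4.3.3 (mean-variance trend, day as the only factor) over the 19526 genes with a mean FPKM above 0.1, with Benjamini-Hochberg adjustment. The script was tested on simulated data. Each of the 9 genes was also compared with a two-sided exact permutation test. Depth, estimated from the steps between low FPKM values of 1912 single-transcript genes, was 4559200 to 7792387 reads per sample, and 75.8% to 80.0% of the values used came within 0.1 of whole reads. Estimated reads cover counting error only. Positions are from GENCODE vM21 (mm10) and promoters from RefSeq (GRCm38.p6), both counted from 1.

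The members and gene lists were chosen with earlier results of these data known. Beside the 9 genes, *Wisp3* and the TEAD genes, the Hippo and target lists gave at most 4 named genes per direction (smallest p, mean of at least 1 FPKM), and the 2 closest profiles were named, except 1 that is not reported here. *Lats2*, *Vgll4* and single markers were named after their values were seen. Over the 6 samples the summed FPKM of 10 mural markers was 361 to 794. P-values reflect no source of variation beyond these samples, and limma moderates the variance of each gene with that of all genes tested.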

Additional observations from a re-analysis of the deposited data

How the results depend on the processing

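The limma fits of the 9 genes, the count over all genes and the counts for the Hippo, TEAD and VGLL, target and fibroblast lists were recomputed under 14 alternatives, namely another pseudocount (1 or 0.01), no filter or a filter at a mean of 1 FPKM, 2 other scalings of the FPKM, no mean-variance trend, the replicate number as a block, and each of the 6 samples left out. No gene of the 9 gained an adjusted p under 0.05 from limma under any of them. *Nov*, *Wisp1*, *Wisp2*, *Ankrd1* and *Wwtr1* kept their direction throughout. When single samples were left out, the log2 fold change ranged from −0.31 to 0.0087 for *Cyr61*, from −0.0032 to 0.75 for *Ctgf*, from −0.33 to 0.0897 for *Amotl2* and from −0.0354 to 0.18 for *Yap1*, and the turns came without day 10 replicate 1, without day 14 replicate 2 and, for *Amotl2* and *Yap1*, without day 14 replicate 3. The number of all genes with an adjusted p under 0.05 was 3, and between 3 and 76 with single samples left out, the 76 being without day 14 replicate 2, and the cause was not tested. With the replicate block, 2 genes had such a p. *Nov* then had an unadjusted p of 0.00302 instead of 0.0669, with an adjusted p of 0.202 from limma. Samples that share a replicate number deviated from their group means with a correlation across genes of 0.058, −0.0058 and 0.0887. Pairs with different numbers were not compared, and a correlation over all genes cannot settle whether such samples share more than a number. Under the replicate block, 8 of the 18 further target genes instead of 5 were higher on day 14 with an unadjusted p under 0.05. This target count was 4 with the FPKM scaled to a common sum and 6 without the mean-variance trend. For the 8 fibroblast markers the same count was 7 instead of 3 under the replicate block, and 3 with a pseudocount of 0.01. It fell to 2 with a pseudocount of 1, no filter, a filter at a mean of 1 FPKM or either other scaling. Without the mean-variance trend the fibroblast count was 1. The other marker counts, the exact tests, CCN shares, SDs and profiles were given under 1 setting only. The other scalings moved the median log2 fold change of all genes to −0.05 and −0.08. Depth limits genes at low FPKM, such as *Ankrd1*, *Wisp3* and *Tead4*. Intervals around the fold changes come from the spread between 3 samples per day, moderated by limma with the variances of all genes tested.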
